A study of Mus musculus with 4 samples.

Results

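The genes described here are the CXC chemokines that draw neutrophils in the mouse and the receptor they share: the ligands Cxcl1, Cxcl2, Cxcl3, Cxcl5 and Ppbp, and the receptor Cxcr2. They were chosen by symbol and are 6 of the 32285 genes listed in each count matrix, 5 of them ligands and 1 the receptor. Each was followed as unique molecular identifiers (UMIs, one per captured RNA molecule) in every cell lineage of synovium and lung.

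TNF+ mice carry a human TNF transgene in a C57BL/6 background and develop inflammatory-erosive arthritis and pulmonary hypertension, and TNF- mice are their littermates without the transgene. All mice were 4-month-old females. Tissue was pooled by genotype before dissociation, from 3 to 5 mice for lung and from 5 to 10 for synovium, and viable cells were sorted and captured for 3′ single-cell RNA-sequencing. This gave 4 libraries (TNF- synovium, TNF+ synovium, TNF- lung, TNF+ lung), 1 per group, so that no difference below has a replicate check and no test between genotypes was possible. Both values are given instead, with 95% intervals that cover counting error only and neither mice nor library preparations. The human transgene is absent from the mouse reference, so its own RNA was not measured here.

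These chemokines carry the Glu-Leu-Arg motif ahead of their first cysteines and signal through Cxcr2, a G protein-coupled receptor that sits on neutrophils and guides them out of the marrow and across vessel walls. Cxcl1, Cxcl2 and Cxcl3 are induced within hours in macrophages and stromal cells by TNF, interleukin 1 and microbial products, largely through NF-kB. Cxcl5 comes mainly from epithelial and stromal cells, and Ppbp, the precursor of neutrophil-activating peptide, is stored in the alpha granules of platelets.

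The 5 ligand genes stand in one cluster on the plus strand of chromosome 5 (GRCm38, GENCODE vM21), and none of them overlaps another gene. In order they are Cxcl5 (chr5:90759360-90761624, 4 exons), Ppbp (chr5:90768518-90770063, 3 exons), Cxcl3 (chr5:90786103-90789600, 4 exons), Cxcl1 (chr5:90891241-90893115, 4 exons) and Cxcl2 (chr5:90903871-90905938, 3 or 4 exons). Pf4 lies between Ppbp and Cxcl3, and Cxcl15 between Cxcl3 and Cxcl1. Cxcr2 is apart from them (chr1:74153989-74161246, 2 or 3 exons, plus strand). Of the 50-base stretches in the transcripts, 126 of 2159 from Cxcl2 were shared with Cxcl3, whereas 0 of 1970 from Cxcl1 and 0 of 1034 from Ppbp occurred in any other gene. Reads from the shared stretches cannot be assigned to either gene.

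The start-site regions are shown because 3 of the ligands carry the same element in them and 2 members do not. Each window runs from 100 bases before the RefSeq transcription start to 10 bases from it (GRCm38.p6, plus strand, from the RefSeq promoter table, which holds 5 of the 6 members and not Cxcl5). Capitals mark matches to the kB consensus, the element bound by NF-kB.
Cxcl1 (chr5:90891145-90891254): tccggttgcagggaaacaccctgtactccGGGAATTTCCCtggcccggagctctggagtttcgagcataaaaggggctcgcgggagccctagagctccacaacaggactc
Cxcl2 (chr5:90903799-90903908): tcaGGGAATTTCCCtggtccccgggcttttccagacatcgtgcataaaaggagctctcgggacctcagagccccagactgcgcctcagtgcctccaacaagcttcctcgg
Cxcl3 (chr5:90786001-90786110): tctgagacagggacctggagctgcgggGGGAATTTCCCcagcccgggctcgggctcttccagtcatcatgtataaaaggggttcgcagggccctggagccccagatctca
Ppbp (chr5:90768418-90768527): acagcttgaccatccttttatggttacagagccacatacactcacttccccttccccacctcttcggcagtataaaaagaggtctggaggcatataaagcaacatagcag
Cxcr2 (chr1:74153894-74154003): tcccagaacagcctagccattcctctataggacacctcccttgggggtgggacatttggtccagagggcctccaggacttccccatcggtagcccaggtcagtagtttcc

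Cxcl1, Cxcl2 and Cxcl3 held the identical run GGGAATTTCCC, which begins 71, 97 and 73 bases upstream of their starts. The consensus matched this run on each strand, at positions offset by 1 base, although the run and its reverse complement differ at the middle base. It occurred in 14 of the 32851 RefSeq promoters (0.0426%), each of 300 bases, and the 10-letter consensus on either strand occurred in 1480 of them (4.51%). In the promoters of Ppbp and Cxcr2 the consensus was not matched, which says only that these letters are not in that window.

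The libraries held between 48454234 and 155989523 UMIs over 4246 to 11243 barcodes, and 3152 to 9174 cells per library were kept after the study's limits on detected genes (200 to 5000) and mitochondrial UMIs (at most 20%). Median depth of the kept cells ranged from 7137 to 12492 UMIs. Over the mitochondrial limit were 17.6% of the TNF+ synovial barcodes and 1.41% to 3.78% of those in the other 3 libraries. Over the gene limit were 6.09% (TNF-) and 8.15% (TNF+) of synovial and 15.2% and 17% of lung barcodes. Lineages were rebuilt by clustering both libraries of a tissue without the 6 members and naming clusters from fixed markers, so every lineage name stands for cells like that type. Synovial cells were 53.9% fibroblasts and 3.58% macrophages or monocytes in TNF- and 14.5% and 32.7% in TNF+. An epithelium-like cluster led by Gm32014, Krt18 and Cldn4 held 143 cells of the TNF+ synovium and 1 cell of the TNF- synovium.

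In whole synovium, Cxcl2, Cxcl3 and Cxcl5 were past 2-fold higher in the TNF+ library, Cxcl1 was 1.93-fold higher and the interval for Cxcr2 covered no difference. Levels are given as UMIs per 1000000 UMIs of the library or lineage (CPM), with the exact Poisson interval, and pairs of values stand TNF- first. Cxcl1 stood at 414.6 CPM [410, 419.2] in TNF- and 800.2 [790.6, 809.9] in TNF+, a log2 ratio of TNF+ over TNF- of 0.95 [0.92, 0.97]. Cxcl2 stood at 156.5 CPM in TNF- and 4772 in TNF+ (log2 ratio 4.93 [4.90, 4.96]), from 11927 and 157684 UMIs.

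Cxcl3, Cxcl5 and Ppbp were near 0 in the TNF- synovium. Cxcl3 had 24 UMIs there (0.315 CPM) and 4026 in TNF+ (121.8 CPM), a log2 ratio of 8.60 [8.02, 9.24]. Cxcl5 had 25 UMIs (0.328 CPM) and 2131 (64.5 CPM), a log2 ratio of 7.62 [7.05, 8.25]. The platelet chemokine Ppbp had 1 and 8 UMIs, too few for a ratio here. Cxcr2 had 178 UMIs (2.34 CPM) in TNF- and 73 (2.21 CPM) in TNF+, and the interval of its log2 ratio, -0.08 [-0.49, 0.32], covered no difference.

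In whole lung Cxcl1, Cxcl2 and Cxcl3 were also past 2-fold higher in TNF+, and Ppbp and Cxcr2 past 2-fold lower. Cxcl1 had 39 UMIs (0.725 CPM) in TNF- and 243 (2.88 CPM) in TNF+, a log2 ratio of 1.99 [1.50, 2.52]. Cxcl2 stood at 37.3 CPM (2006 UMIs) and 91 CPM (7681 UMIs), a log2 ratio of 1.29 [1.22, 1.36], and Cxcl3 at 0.279 CPM (15 UMIs) and 4.05 CPM (342 UMIs), a log2 ratio of 3.86 [3.12, 4.72]. Cxcl2 and Cxcl3 were thus past 2-fold higher in TNF+ in both tissues.

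Ppbp in lung stood at 44.7 CPM (2406 UMIs) in TNF- and 10.5 CPM (882 UMIs) in TNF+, a log2 ratio of -2.10 [-2.21, -1.99]. Cxcr2 stood at 35 CPM (1885 UMIs) and 13.1 CPM (1105 UMIs), a log2 ratio of -1.42 [-1.53, -1.31]. Cxcl5 had few UMIs, 29 and 24 (0.539 and 0.284 CPM; log2 ratio -0.92 [-1.77, -0.09], and 0.16 with all barcodes). In such sums over a tissue, fewer cells of a type and less RNA per cell cannot be told apart.

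**Figure D1:**
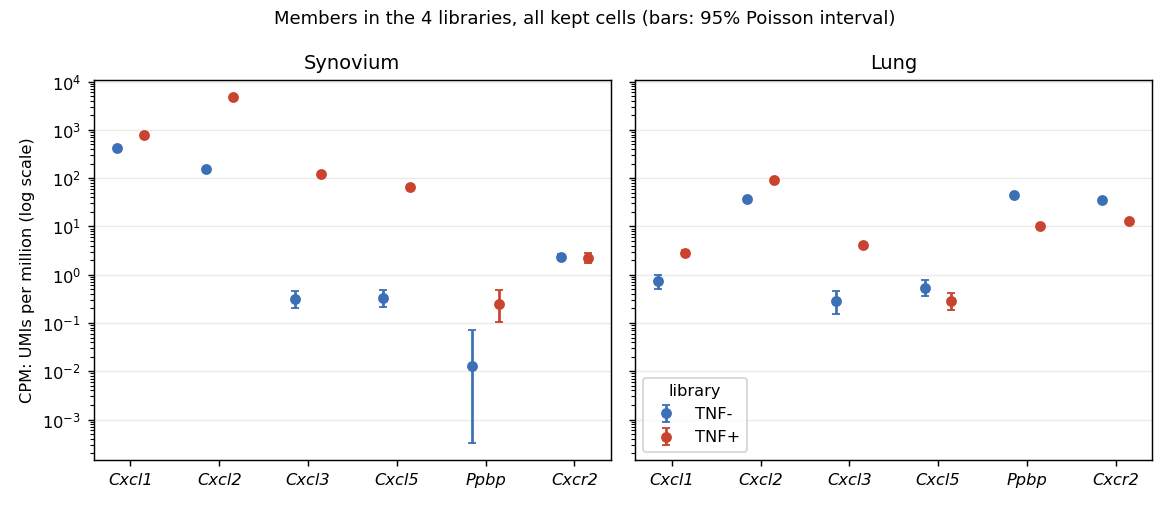
Level of each member in the 4 libraries, in CPM on a log axis, with 1 point per library (TNF- blue, TNF+ red) and 95% Poisson intervals for counting error. In synovium Cxcl2 rises from 156.5 to 4772 CPM and Cxcl3 and Cxcl5 start below 1 CPM, whereas Cxcr2 is at 2.34 and 2.21 CPM. In lung Ppbp and Cxcr2 are lower in TNF+.

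Counted at 2-fold among genes with at least 20 UMIs over both libraries, 3 of 5 such members (Cxcl2, Cxcl3, Cxcl5) were higher in TNF+ synovium and 0 lower, with a median log2 ratio of 4.93. Over all 19255 genes counted in the same way, 11.8% were higher and 21.9% lower, with a median of -0.17. In lung, 3 of 6 members (Cxcl1, Cxcl2, Cxcl3) were higher and 2 (Ppbp, Cxcr2) lower, with a median of 0.18, against 5.79% higher and 25.5% lower among 19510 genes and a median of -0.32. Median-of-ratios scaling in place of total UMIs raised every log2 ratio by 0.12 in whole synovium and 0.36 in whole lung, and by 0.11 to 0.40 within the 4 lineages below. Under it Cxcl1 in whole synovium reached 1.07, past the 2-fold line.

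Among kept synovial cells the leading source of Cxcl1 differed between the libraries, and those of Cxcl2 and Cxcl3 did not (the bars of UMI shares by lineage). Cxcl1 lay in fibroblasts in TNF-, with 88.8% [88.4, 89.1] of its 31591 UMIs. In TNF+, macrophages or monocytes held 55.1% [54.5, 55.7] of its 26445 UMIs, fibroblasts 30.5% and endothelium 7.13%, but with all barcodes fibroblasts led there too (45.4% against 39.4%). Cxcl2 lay mostly in macrophages or monocytes in both, with 66% in TNF- and 95.3% in TNF+. At a Leiden resolution of 0.4 the C1q macrophages fell in a dendritic cluster, and the TNF- share in macrophages or monocytes was 3.52%. In TNF- a further 10.9% lay in dendritic cells, 7.81% in neutrophils, 7.11% in natural killer or innate lymphoid cells and 5.67% in fibroblasts. Cxcl3 in TNF+ was likewise 92% in macrophages or monocytes and 4.82% in fibroblasts. Of the Cxcl5 UMIs in TNF+, 96.8% [96, 97.5] lay in fibroblasts.

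**Figure D2:**
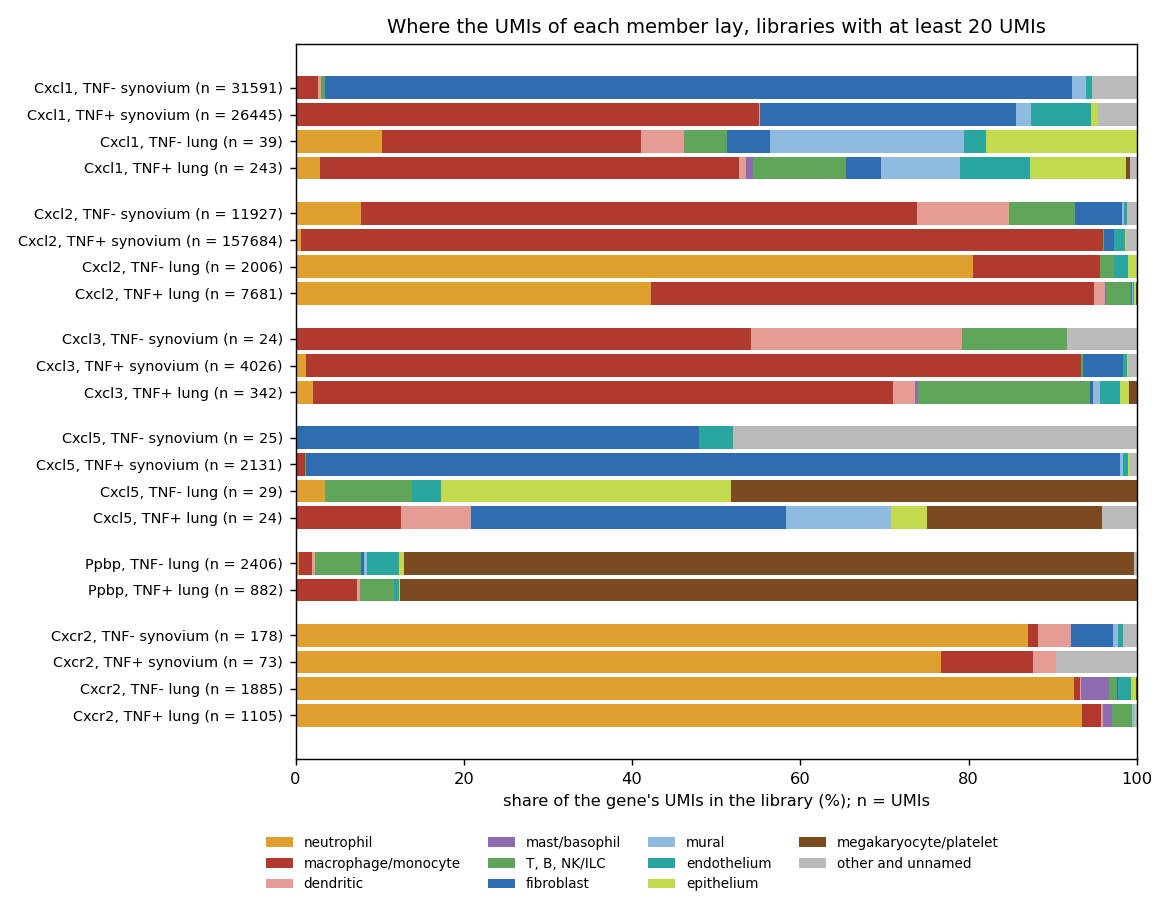
Share of each member's UMIs in kept cells by lineage, in %, for every library with at least 20 UMIs of the gene; n is the number of UMIs. Cxcl1 in synovium moves from 88.8% fibroblast to 55.1% macrophage or monocyte, Cxcl2 in TNF+ synovium is 95.3% macrophage or monocyte, Ppbp is over 86% platelet and Cxcr2 is mostly neutrophil in each library.

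Within synovial macrophages and monocytes (222 cells in TNF-, 1031 in TNF+), 3 of the 4 members with enough UMIs were at least 2-fold higher in TNF+, against 8.4% of 11775 genes, and 0 were lower, against 19.7%. Their median log2 ratio was 1.89, and that of all genes -0.22. Cxcl1 stood at 266.8 and 976.6 CPM (log2 ratio 1.87 [1.77, 1.98]) and Cxcl2 at 2683 and 10061 CPM (1.91 [1.87, 1.94]). Cxcl3 stood at 4.43 CPM in TNF-, from 13 UMIs, and at 248.2 CPM in TNF+ (5.81 [5.03, 6.72]). Cxcl5 had 0 UMIs in TNF- and 23 in TNF+, a log2 ratio of at least 0.59 against a floor of 3 UMIs.

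Different clusters made up this lineage in the 2 libraries, and the members differed between them. The cluster led by C1qa, C1qc and C1qb, complement genes of tissue-resident macrophages, had high ligand counts in both libraries: Cxcl1 was at 755.3 CPM in TNF- (75 cells) and 625.5 in TNF+ (177 cells), and Cxcl2 at 7462 and 8608 CPM. In it Cxcl3 was at 11 and 158 CPM. The cluster led by Chil3, Clec4n and Spp1 was low in TNF- and high in TNF+: Cxcl1 went from 11.5 CPM (58 cells) to 1182 (666 cells), Cxcl2 from 378.5 to 11572 CPM, and Cxcl3 from 2.09 to 301.2 CPM. Here Cxcl2 amounted to 188.1 UMIs per cell in TNF+ and 6.24 in TNF-. The cluster led by Cd300e, Treml4 and Adgre4 (89 and 188 cells) had little Cxcl1 in either library, at 16.4 and 25.3 CPM, and 46 and 648.3 CPM of Cxcl2. Cxcl2 and Cxcl3 were among the first 10 genes of the Chil3 cluster although neither had entered the clustering.

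Without the C1q cluster the lineage ratios were larger, at 6.24 for Cxcl1, 5.63 for Cxcl2 and 8.02 for Cxcl3 on the log2 scale. The 12 immediate-early genes that tissue dissociation induces summed to 13175 CPM in the C1q cluster of TNF- and 3703 in that of TNF+, and to 3675 and 3402 CPM in the Chil3 cluster. Over the whole lineage they summed to 7021 CPM in TNF- and 3431 in TNF+. Their part in the ligand levels was not tested.

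Detection of the ligands in single cells was compared after thinning. Thinned to 1000 UMIs per cell to even out depth, 27.6% [21.8, 34] of synovial macrophages or monocytes in TNF- and 65.8% [62.8, 68.7] of those in TNF+ had a Cxcl2 UMI (36.5% and 80.7% unthinned). In T cells of the same libraries, as a background, the thinned shares were 1.54% and 5.56% at median depths of 10310 and 6196 UMIs. This T cluster had 18 T cell markers and 17 natural killer or innate lymphoid ones, so it may hold natural killer cells too. All lymphocytes gave 9.34% and 7.3%, but 29 of the 31 positive ones in TNF- lay in the natural killer or innate lymphoid lineage. That lineage was 1 cluster, led by Il5, Dach2 and Ccl1, and 20.7% of its TNF- cells had a Cxcl2 UMI. The macrophages or monocytes had median depths of 13124 and 14222 UMIs. Among TNF+ macrophages or monocytes with Cxcl2, 28.7% (194 of 676) also had Cxcl1, against 2.27% (8 of 352) of those without, and 12.6% (85 of 676) had Cxcl3, against 1.14% (4 of 352). In TNF-, 19.7% (12 of 61) with Cxcl2 had Cxcl1, against 0.625% (1 of 160) without, and Cxcl3 was found in 0 of 61 and in 1 of 160. Few cells held most molecules: 17 cells contained 50% of all Cxcl2 UMIs in the TNF- synovium, 112 cells in TNF+, and a single TNF+ cell contained 1681.

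Synovial fibroblasts (3343 cells in TNF-, 458 in TNF+) had all 4 inducible ligands higher in TNF+. All 4 members with enough UMIs passed 2-fold, against 8.42% of 16452 genes, and 0 were lower, against 23.2%; the median log2 ratio was 6.86 and that of all genes -0.31. Cxcl1 stood at 559.5 and 1383 CPM (log2 ratio 1.31 [1.27, 1.34]), and Cxcl2 at 13.5 and 325.5 CPM (4.59 [4.47, 4.72]). Cxcl3 had 0 UMIs in TNF- and 194 in TNF+ (33.3 CPM), a log2 ratio of at least 9.12. Cxcl5 stood at 0.239 and 353.9 CPM, a log2 ratio of 10.53 [9.72, 11.49].

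Much of this came from a cluster found almost only in TNF+, led by Saa3, an acute-phase protein, and Mmp13, a collagenase (2 cells in TNF-, 231 in TNF+). It held 2046 of the 2131 Cxcl5 UMIs of the library, at 542.3 CPM, and stood at 1563 CPM for Cxcl1, 479.5 for Cxcl2 and 50.9 for Cxcl3. As it was mostly of 1 library, it may reflect that library and not a type. Without it 2 members (Cxcl2 and Cxcl5) in place of 4 passed 2-fold, as Cxcl1 fell under that line and Cxcl3 had too few UMIs left. The other fibroblast clusters were seen in both libraries. Levels are not given for the one led by Mrgprg and Sv2c, with 745 cells in TNF- and 19 in TNF+. In the rest Cxcl1 varied. It stood at 568.7 and 2120 CPM in the Grm8 and Cxcl14 cluster, at 761 and 1412 CPM in the Gdf10 and C4b cluster, and at 157.9 and 161.6 CPM in the cluster led by Chad, Kera and Fmod. Cxcl2 in the same 3 clusters stood at 7.09 and 95.6, 16.2 and 36.7, and 2.15 and 15.1 CPM.

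After thinning, 27.2% of TNF- and 47% of TNF+ fibroblasts had a Cxcl1 UMI (61.5% and 74.2% unthinned), with 2.41% and 1.69% of lymphocytes. For Cxcl5 the unthinned shares were 0.269% in TNF- and 29.5% in TNF+, and the thinned ones 0 of 3337 cells and 13.7%. The immediate-early genes summed to 15977 CPM in TNF- fibroblasts and 6960 in TNF+, and their part was not tested.

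Cxcl2 was also higher in the TNF+ cells of synovial vessels and nerve sheaths (the plot of synovial levels by lineage). In endothelium (642 and 443 cells) Cxcl2 stood at 13.2 and 513.9 CPM (log2 ratio 5.28 [4.85, 5.75]) and Cxcl1 at 72.3 and 471 CPM (2.70). In mural cells (293 and 127), the pericytes and smooth muscle of vessels, Cxcl2 stood at 10.2 and 98.8 CPM (3.27) and Cxcl1 at 265.2 and 515.2 CPM (0.96). Schwann-like cells (68 and 233) had 0 Cxcl2 UMIs in TNF- and 599.7 CPM in TNF+. In dendritic cells (371 and 54) Cxcl2 stood at 190 and 89.1 CPM (-1.09 [-1.45, -0.76]), but the direction turned with all barcodes clustered anew, at 268.5 and 837.7 CPM. In T cells (131 and 128) it stood at 54 and 27.1 CPM (-0.99), although the shares of cells with a UMI were 5.34% and 15.6% unthinned.

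**Figure D3:**
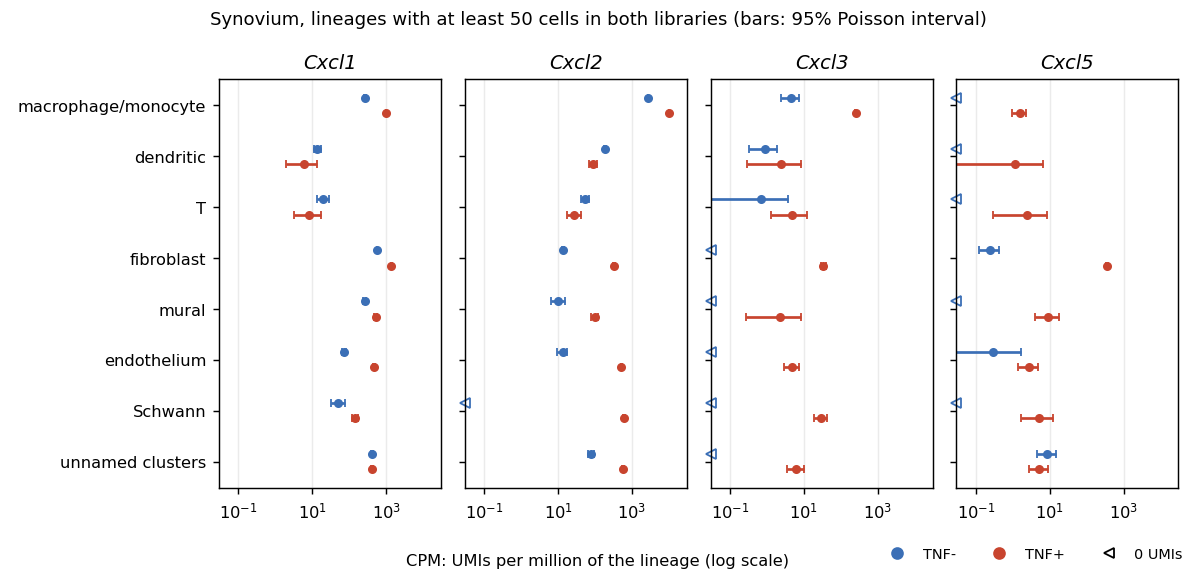
Levels of Cxcl1, Cxcl2, Cxcl3 and Cxcl5 in synovial lineages with at least 50 cells in both libraries, in CPM of the lineage on a log axis, with 95% Poisson intervals; open triangles at the left edge mark 0 UMIs. TNF+ lies to the right of TNF- for Cxcl2 in each lineage shown except dendritic and T cells, and Cxcl5 is above 100 CPM only in TNF+ fibroblasts.

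In lung the TNF+ macrophages and monocytes made up more of the Cxcl2. Neutrophils held 80.6% of the Cxcl2 UMIs in TNF- and 42.2% in TNF+, and macrophages or monocytes 15% and 52.7%. That lineage numbered 643 cells in TNF- and 4419 in TNF+. Within it Cxcl2 stood at 43.2 and 97.1 CPM (log2 ratio 1.17) and Cxcl3 at 0.143 CPM (1 UMI) and 5.67 CPM (236 UMIs; 5.30). Cxcl1 was at 1.72 and 2.91 CPM, from 12 and 121 UMIs, with an interval that covered no difference (0.76 [-0.10, 1.75]). Its log2 ratio was 3.22 with doublets removed, 2.08 with all barcodes and 1.91 with each cell weighted equally. All kept TNF- lung cells had 39 Cxcl1 UMIs. With doublets removed this lineage held 9.09% of those left, so the TNF- side of 3.22 rests on very few UMIs. Counted at 2-fold, 2 of 5 members were higher, against 4.93% of 14769 genes, and 2 lower, against 13.8%, with a median of 0.76 and one of -0.12 for all genes. The lower ones were Ppbp (5.59 and 1.54 CPM, -1.86) and Cxcr2 (1.86 and 0.6 CPM, -1.64), genes of platelets and neutrophils. The direction for Cxcr2 turned with each cell weighted equally (0.71). Ppbp in T cells was likewise 6.92 and 1.34 CPM, and in B or plasma cells 5.14 and 0.874 CPM.

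The clusters behind that lineage again differed between the libraries. In TNF+, 2716 of the cells fell in a cluster led by Ccdc192 and Hsd17b2 that held 33 cells of TNF-, and 267 of the TNF- cells fell in a cluster led by Gm48089 that held 16 cells of TNF+. Cxcl2 was at 142.7 and 67.3 CPM in the former and at 6.84 CPM and 0 UMIs in the latter. Of the clusters well filled in both, the one led by F13a1 and Ccr2 (133 and 446 cells) had 41.7 and 133.3 CPM of Cxcl2. The cluster led by St18 and Ms4a14 (62 and 234) had 160.7 and 201 CPM. The cluster led by Kcnip4 and Htr2c (103 and 69) had 24.5 and 442.1 CPM, with Cxcl3 at 0 UMIs and 52.5 CPM. A shallow cluster led by Spp1, Marco and Ccl8 (45 and 938 cells, median 817 UMIs) had 0 UMIs of Cxcl2 and Cxcl3 in TNF- and 64.6 and 63.9 CPM of them in TNF+.

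Cxcr2 marked neutrophils in every library. Neutrophils held 92.6% of its UMIs in TNF- lung, 93.5% in TNF+ lung, 87.1% in TNF- synovium and 76.7% in TNF+ synovium. They were 4.33% [3.87, 4.83] of kept TNF- lung cells (303 cells) and 1.96% [1.69, 2.27] of TNF+ lung cells (180 cells). In synovium there were 27 and 23 of them, or 0.436% and 0.73%, under the 50 cells set for a comparison. Lung neutrophils had Cxcr2 at 1154 CPM in TNF- and 842.1 in TNF+ (log2 ratio -0.45 [-0.57, -0.34]), yet 5.76 and 5.74 UMIs per cell, since the TNF+ cells were deeper (median 6196 against 4448 UMIs). The share of cells with a Cxcr2 UMI, thinned, was 71.2% [65.7, 76.3] in TNF- and 54.7% [46.9, 62.2] in TNF+ (95.4% and 88.3% unthinned), and 0.204% and 0.0626% in lung lymphocytes.

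Lung neutrophils also held Cxcl2. It stood at 1068 CPM in TNF- and 2645 in TNF+ (log2 ratio 1.31 [1.22, 1.40]), or 5.33 and 18 UMIs per cell, and 32.5% and 60.5% of the thinned cells had a UMI of it, against 0.204% and 1.1% of lung lymphocytes at median depths of 7951 and 8470 UMIs. Of 2 members with enough UMIs in these cells, 1 was at least 2-fold higher, against 6.08% of 7644 genes, and 0 were lower, against 11.2%. Their median log2 ratio was 0.43 and that of all genes -0.15. The few synovial neutrophils had 4207 and 9708 CPM of Cxcl2 and 700.4 and 504.3 CPM of Cxcr2, from 155 and 56 Cxcr2 UMIs. Outside neutrophils, Cxcr2 was found in mast cell- or basophil-like lung cells, at 144.5 CPM in TNF- (64 UMIs in 53 cells) and 11.5 CPM in TNF+ (12 UMIs in 98 cells), a log2 ratio of -3.65 [-4.68, -2.75]. Their cluster, led by Il6, Dach2 and Cpa3, also had 7 natural killer or innate lymphoid markers. With all barcodes, a natural killer or innate lymphoid cluster led by Dach2 and Stab2 held 50 TNF- and 127 TNF+ barcodes. A mast cell- or basophil-like cluster led by Il6 and Cd200r3 held 20 and 8. The part of this make-up in the ratio was not tested.

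Ppbp lay in platelets, with 86.8% of its UMIs in TNF- lung and 87.6% in TNF+ lung. Platelet- or megakaryocyte-like barcodes were 213 (3.04% of kept cells) in TNF- and 118 (1.29%) in TNF+, at median depths of 721 and 720 UMIs. Within them Ppbp stood at 7332 and 6007 CPM (log2 ratio -0.29 [-0.41, -0.17]), a smaller difference than in the whole lung. Cxcl5 was detected in the same barcodes, with 14 and 5 UMIs.

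Lung mural, endothelial and epithelial cells had few Cxcl1 UMIs, at higher CPM in TNF+. It was at 4.9 and 104.7 CPM in mural cells (log2 ratio 4.42), 0.0717 CPM (1 UMI) and 13.3 CPM (20 UMIs) in endothelium, and 1.98 and 28.7 CPM in epithelium (3.86). The TNF+ cells of these lineages were shallow, with a median of 645 UMIs in mural cells and 783 in endothelium, against 8515 and 5601 in TNF-. Counted per cell, the mural values were 0.0423 and 0.211 UMIs, a ratio of 4.99 against 21.4 by CPM. Different clusters also filled these lineages: 88 of the 109 mural cells in TNF+ fell in a cluster led by Col7a1 and Tafa1 with 19 cells of TNF-, and 261 of the 397 endothelial cells in one led by Prnd and Hspg2 with 19 cells of TNF-. In an epithelial cluster filled in both, led by Ank3 and Arhgef38 (172 and 59 cells), Cxcl1 stood at 2.18 and 32 CPM. The part of depth and cluster make-up was not tested.

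**Figure D4:**
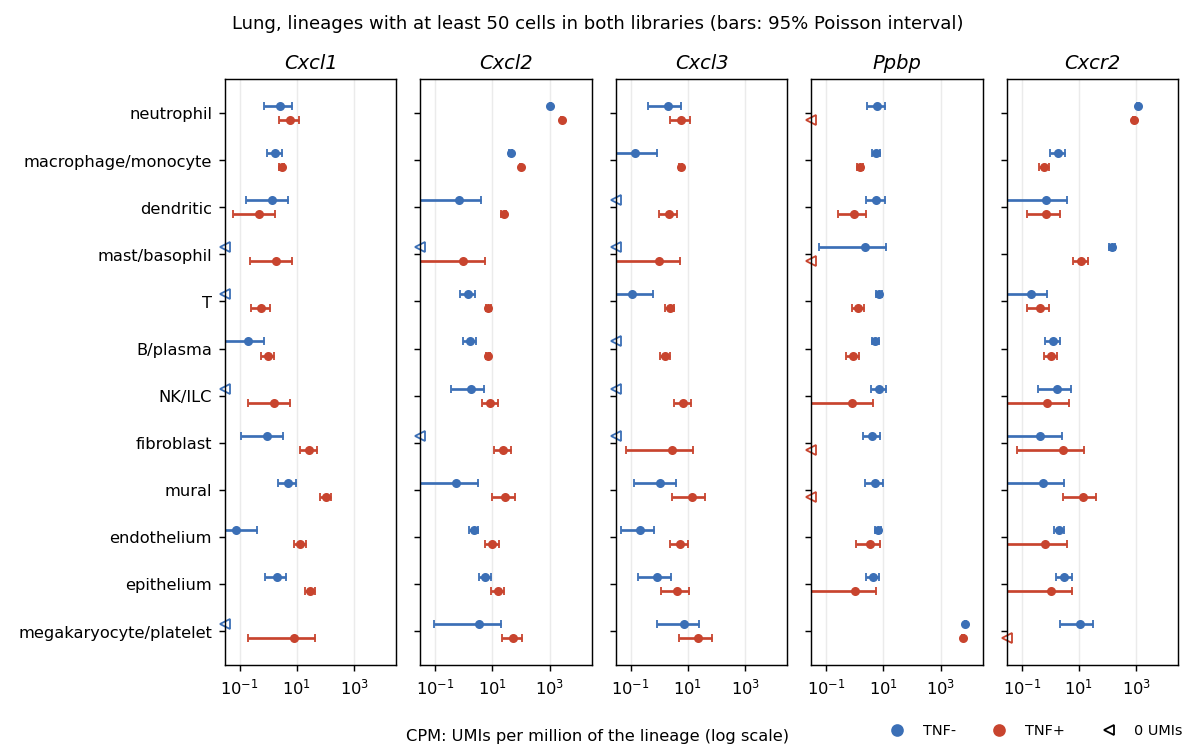
Levels of 5 members in lung lineages with at least 50 cells in both libraries, in CPM of the lineage on a log axis, with 95% Poisson intervals; open triangles at the left edge mark 0 UMIs. Cxcl2 is highest in neutrophils (1068 and 2645 CPM), Ppbp in megakaryocytes or platelets (7332 and 6007 CPM) and Cxcr2 in neutrophils (1154 and 842.1 CPM).

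The upper limit of 5000 genes left out barcodes that held much of some ligands, above all Cxcl3 in lung and Cxcl5 in TNF+ synovium. Of the Cxcl5 UMIs of the TNF+ synovium, 81.6% (9435 of 11566) lay in barcodes left out, and 9395 of them in the 346 barcodes over 5000 genes, of which 131 had a Cxcl5 UMI. Of the Cxcl3 UMIs of the TNF+ lung, 94.8% (6289 of 6631) were left out, 6284 of them in the 1909 barcodes over 5000 genes. For TNF- lung Cxcl3 the share was 96.9% (466 of 481), and for Cxcl1 it was 63.6% and 79.7% of TNF- and TNF+ lung UMIs. Ppbp and Cxcr2 lost little in lung, between 6.07% and 13.1%. Whether these barcodes held more than 1 cell was not tested.

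With all barcodes kept and clustered anew, Cxcl1, Cxcl2, Cxcl3 and Cxcl5 were past 2-fold higher in TNF+ synovium. In whole synovium the log2 ratios were 1.09 for Cxcl1, 4.53 for Cxcl2, 8.23 for Cxcl3 and 8.21 for Cxcl5. Ppbp passed 2-fold as well, but from only 1 and 23 UMIs (5.42 [2.80, 10.79]). Fibroblasts then held 94.2% of TNF+ Cxcl5. A cluster of 472 barcodes led by Mmp13, Saa3, Ibsp and Tnn accounted for 94.1%, with 10882 UMIs and 233 of its barcodes among those otherwise left out. It also held 27.9% of TNF+ Cxcl3.

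In lung with all barcodes, whole-tissue Cxcl3 stood at 5 CPM in TNF- and 42.5 in TNF+ (log2 ratio 3.09 [2.95, 3.22]) and Cxcl5 at 0.853 and 0.955 CPM (0.16 [-0.24, 0.57]). Macrophages or monocytes held 94.1% of the TNF+ Cxcl3. A cluster led by Egfem1, Ch25h, Htr2c and Plet1 alone held 73.6% of it, in 566 barcodes (516 otherwise left out), 254 of which had a UMI. The TNF- lung had 19 barcodes of that cluster with 381 Cxcl3 UMIs, or 79.2% of the library's, but in only 2 barcodes. The log2 ratio of Cxcl3 within the lung barcodes then named macrophages or monocytes was 0.51, and its TNF- side rests largely on those 2 barcodes. That lineage left out a cluster led by Kcnip4 and Cidec (407 barcodes in TNF-, 28 in TNF+), which stayed unnamed in this clustering. Among kept cells the Kcnip4 and Htr2c cluster had counted as macrophages or monocytes. All unnamed TNF- lung barcodes together had 9 Cxcl3 UMIs (0.819 CPM).

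**Figure D5:**
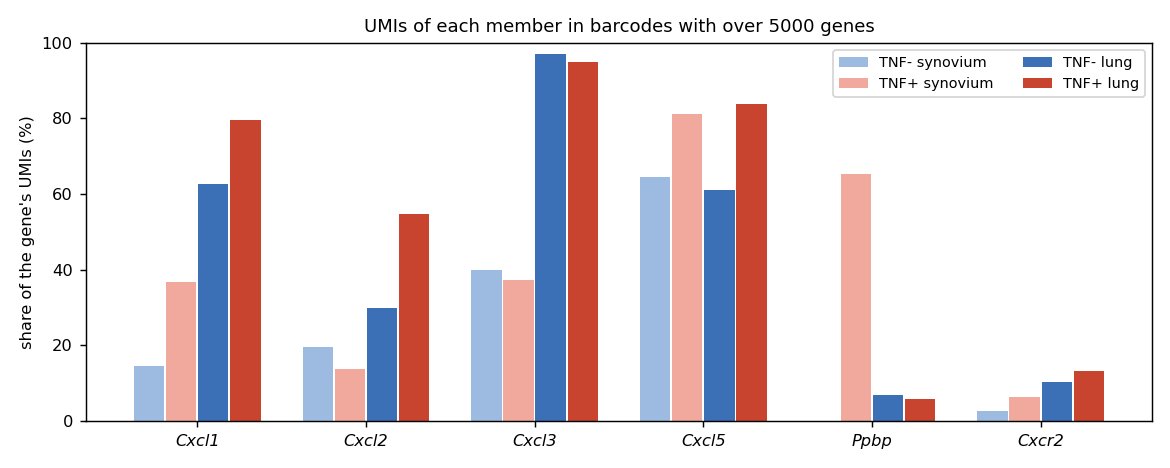
Share of each member's UMIs, in %, that lay in barcodes with over 5000 detected genes, for each library with at least 20 UMIs of the gene over all barcodes. Nearly all lung Cxcl3 and most Cxcl5 lie above the limit, and little lung Ppbp or Cxcr2 does.

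Of the other genes around this axis, 5 of 9 further CXC chemokines were at least 2-fold higher and 1 lower in TNF+ synovium (median log2 ratio 1.14). For this and the next lists, the shares over all genes were 11.8% higher and 21.9% lower in whole synovium and 5.79% and 25.5% in whole lung. The lung-expressed Cxcl15 had 0 and 109 UMIs, Pf4 22.1 and 247.3 CPM (3.49), and Cxcl14 896.2 and 123.2 CPM (-2.86). Pf4 is known from platelets, but no synovial cluster was named as platelets. It was among the first 10 genes of the synovial C1q macrophage cluster. In lung 2 of 9 were higher and 3 lower: the B cell attractant Cxcl13 stood at 1.32 and 520.3 CPM (8.62), Cxcl14 at 34.2 and 2.29 CPM (-3.90) and Cxcl12, the ligand of Cxcr4, at 134.9 and 15.6 CPM (-3.12).

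Of the receptors and adhesion proteins of neutrophils, most of them shared with other myeloid cells, 7 of 12 were higher and 1 lower in synovium, and 8 of 13 higher and 1 lower in lung. The formyl peptide receptors Fpr1 (1.31 and 22.6 CPM in synovium, 9.18 and 111.4 in lung) and Fpr2 (1.85 and 30.2 CPM, 13.3 and 108.8 CPM) led both. Next came the C5a receptor C5ar1 in synovium (13 and 71.4 CPM) and the integrin Itgal in lung (175.4 and 648.7 CPM). Within lung neutrophils 2 of 13 were higher and 2 lower, against 6.08% and 11.2% of all genes. Within synovial macrophages and monocytes 2 of 12 were higher and 3 lower, against 8.4% and 19.7%, with a median log2 ratio of -0.41. Within those of lung 3 of 12 were higher and 1 lower, against 4.93% and 13.8%. These cells were 3.58% and 32.7% of kept synovial cells and 9.19% and 48.2% of kept lung cells.

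Of the 5 receptors that bind or scavenge chemokines, 1 was higher and 2 lower in synovium, and 2 were higher and 3 lower in lung. Ackr2, which takes up inflammatory CC chemokines, stood at 8.02 and 0.605 CPM in synovium (log2 ratio -3.73) and 15.3 and 0.628 CPM in lung (-4.61), and Ackr3, the scavenger of Cxcl12, at 320.5 and 50.3 CPM (-2.67) and 31.2 and 2.24 CPM (-3.80). Ccrl2 was higher in synovium (14.8 and 69.4 CPM) and Ackr4 lower in lung (8.31 and 1.16 CPM).

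Among 16 inducing cytokines and receptors, 6 of the 15 counted were higher and 4 lower in synovium, and 5 higher and 3 lower of 16 in lung. Csf3, the granulocyte growth factor, had 16 UMIs in TNF- and 1418 in TNF+ synovium (0.21 and 42.9 CPM, log2 ratio 7.68 [6.97, 8.49]). Il1a stood at 1.61 and 18.2 CPM (3.50) and Tlr2, which senses bacterial lipoproteins, at 21.9 and 173.4 CPM (2.98). In lung Il17rc was at 8.66 and 1.39 CPM (-2.64), Il6 at 8.27 and 1.96 CPM (-2.08), and Il17a at 0.818 and 3.25 CPM (1.99). The median of the list in lung was -0.35, and 0.00 under median-of-ratios scaling.

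Of the 16 NF-kB members and regulators of chemokine mRNA, 1 was higher and 4 lower in synovium (median 0.03), and 5 were higher and 0 lower in lung (median 0.52). Cebpd stood at 724.4 and 217.8 CPM in synovium (-1.73), Zfp36, which destabilises chemokine mRNA, at 1026 and 362.9 CPM (-1.50) and Zfp36l1 at 680.6 and 303.7 CPM (-1.16). In lung Cebpb stood at 272.7 and 1244 CPM (2.19), Nfkbiz at 106 and 326.4 CPM (1.62) and Tnfaip3 at 77 and 187.1 CPM (1.28). Within synovial macrophages and monocytes 0 of 16 were higher and 6 lower, against 8.4% and 19.7% of all genes.

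The endothelial proteins of neutrophil entry differed in direction between the tissues, without a test of that difference. Their values are sums over all cells of a tissue and not over endothelium, and the part of cell make-up was not tested. Endothelium was 10.35% of kept synovial cells in TNF- and 14.05% in TNF+, and epithelium 0.016% and 4.54%. In synovium 4 of 8 were higher and 0 lower, led by the selectins Sele (0.105 and 3.69 CPM, log2 ratio 5.14) and Selp (1.69 and 29.6 CPM, 4.13) and the junction protein F11r (19.1 and 83.8 CPM, 2.13). In lung 0 of 8 were higher and 5 lower, led by Icam2 (226.7 and 25.1 CPM, -3.18), Selp (5.28 and 0.865 CPM, -2.61) and Jam3 (7.57 and 1.59 CPM, -2.25), in a library where endothelium was 4.33% of kept cells against 32.6% in TNF-. Of the 12 immediate-early genes, 1 was higher and 7 lower in synovium and 0 higher and 1 lower in lung, the latter turning to 2 higher and 0 lower under median-of-ratios scaling. That scaling also gave 6 endothelial proteins higher in synovium and 4 lower in lung, and 7 NF-kB members and regulators higher in lung. Egr1, with the widest difference in both, stood at 2288 and 419.8 CPM in synovium and 86.9 and 34.6 CPM in lung.

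The genes whose levels ran most like each member's were taken over 43 lineages in single libraries, from 17810 genes, by Pearson's r of log2(CPM + 1); the points share libraries and depth, and r is a description. For Cxcr2 they were Retnlg (0.91), Stfa2l1 (0.90) and Mirt2 (0.88), and for Ppbp Gp9 (0.97), Treml1 (0.95) and Mpig6b (0.94). For Cxcl2 they were Hmox1, Cd14 and Slc7a11 (0.73 to 0.78), for Cxcl3 Spp1, Fth1 and Ninj1 (0.68 to 0.78), and for Cxcl5 Saa3, Ibsp and Ltbp2 (0.62 to 0.71). For Cxcl1 they were Gm48099, Lars2 and Camk1d (0.86 to 0.88). Cxcl2 and Cxcl3 had an r of 0.65 with each other, and Cxcl1 and Cxcl2 of 0.54.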

How the data were processed

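Each of the 4 samples was 1 pooled library of viable sorted cells from lung or synovium, grouped by its labelled genotype and tissue. The authors deposited raw UMI counts per gene and barcode, made with Cell Ranger 7.0.1 (per the submitters' processing notes) on the 10x mouse reference of mm10, without normalization and only for barcodes called as cells. Between 5 and 21 barcodes were shared by any 2 libraries.

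Cells were kept with 200 to 5000 genes and at most 20% mitochondrial UMIs, as in the study. Doublets were not removed beyond that limit; as an alternative, 107 to 825 cells per library with the highest Scrublet scores (0.8% per 1000 barcodes) were removed. Both libraries of a tissue were clustered together (Scanpy 1.11.5, leidenalg 0.10.2, 2000 variable genes without the members, 30 components, Leiden resolution 0.8). Clusters were named from 344 markers of 18 cell types. A cluster stayed unnamed with fewer than 5 markers of its best type, or with more markers of another class among its first 10 genes. Shallow depth did so only where no marker of the best type was among those genes, so some shallow clusters kept a name. Harmony, used in the study, was not available, so each library was also clustered by itself.

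UMIs were summed per library and per lineage of at least 50 cells, and given as CPM with exact Poisson intervals, shares with exact Clopper-Pearson intervals and log2 ratios with conditional binomial intervals at 95% (SciPy 1.17.1). A log2 ratio against 0 UMIs used a floor of 3 UMIs over the group and is a lower bound. With 1 library per group nothing was tested between genotypes, and a gene was counted as higher or lower at 2-fold among genes with at least 20 UMIs. Positions came from GENCODE vM21, in which 32158 of 32285 identifiers were matched. The interval code was tested on simulated data.

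The members and gene lists were chosen with earlier results of these data known. The text names all 6 members and, from each of 7 lists and per tissue, the 3 genes with the largest absolute log2 ratio, plus, for each member, the 3 genes with the highest Pearson's r over lineages, among genes with at least 100 UMIs. Clusters are named by their leading genes. Alternatives covered the scaling, the filters on cells and counts, doublets, weighting by cell, the clustering and the thinning depth. No column of values was left unassigned (0 columns of no sample).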

Additional observations from a re-analysis of the deposited data

Results flagged for a closer look

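Cxcl5 had log2 ratios of opposite sign in the whole tissues, 7.62 in synovium and -0.92 in lung. The difference between the tissues was not tested, the lung value rests on 29 and 24 UMIs, and with all barcodes it was 0.16 [-0.24, 0.57], no longer of opposite sign.

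Barcodes left out by the limits on genes and mitochondrial UMIs entered only the comparisons said to use all barcodes, and in them Cxcl1, Cxcl2 and Cxcl3 of both tissues and synovial Cxcl5 were more abundant in TNF+ than in TNF-. In synovium Cxcl1 stood at 1009 CPM in the left-out TNF+ barcodes and 376.8 in those of TNF-, Cxcl2 at 1670 and 205.6, Cxcl3 at 156.8 and 1.13, and Cxcl5 at 612.4 and 3.38. In lung Cxcl1 stood at 13.3 and 1.61 CPM, Cxcl2 at 130 and 20.5, and Cxcl3 at 87.9 and 11. Ppbp in the left-out lung barcodes went the other way, at 0.796 CPM in TNF+ and 4.47 in TNF-. Whether these barcodes held more than 1 cell was not tested.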

How the results depend on the processing

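Of 207 log2 ratios recomputed under the alternatives, 136 stayed within the counting interval, 70 moved beyond it and 1 that was past 2-fold changed sign: Cxcr2 in lung macrophages or monocytes was 0.71 with each cell weighted equally against -1.64. Of those under 2-fold, Cxcl5 in whole lung changed sign with no filter (0.16), Cxcr2 in whole synovium under median-of-ratios scaling (0.04) and with each cell weighted equally (0.10), and the lower bound of Cxcl5 in synovial macrophages without the C1q cluster (-0.15). Without the Saa3 and Mmp13 cluster, added after the data were seen, 2 members in place of 4 passed 2-fold in synovial fibroblasts. With no filter on cells 5 in place of 3 passed in whole synovium, adding Cxcl1 and Ppbp, the latter from only 1 and 23 UMIs in TNF- and TNF+. Under the same setting 3 of 5 members kept their leading lineage in TNF- lung. At Leiden resolution 0.4 the C1q macrophages joined a dendritic cluster, 3 of 5 members kept their leading lineage in TNF- synovium, and the log2 ratios in synovial macrophages rose to 6.09 for Cxcl1 and 5.49 for Cxcl2. Removing doublets gave 3.22 for Cxcl1, from very few TNF- UMIs, and 1.71 for Cxcl2 in lung macrophages. Neutrophils were 3.54% of TNF- and 1.61% of TNF+ lung cells with no filter, and 4.86% of TNF- under the stricter one. Thinned to 500 UMIs, shares of cells with a UMI were 35.6% and 18% for Cxcl1 in TNF+ and TNF- fibroblasts, 58.5% for Cxcl2 in TNF+ synovial macrophages, and 30% and 43.6% for Cxcr2 in TNF+ and TNF- lung neutrophils. Fewer UMIs per cell give lower shares by construction; the cause of the other changes was not tested. No paired analysis was possible because each group held 1 library. Depth limits Ppbp in synovium, Cxcl5 in lung and Cxcl3 in the TNF- libraries, each at under 30 UMIs in kept cells.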
